A study of Mus musculus with 2 samples.

Results

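The 9 genes Il1b, Il1a, Il1rn, Il18, Casp1, Nlrp3, Tnf, Socs3 and Il10ra, which encode inflammatory cytokines, the inflammasome that matures some of them, and parts of their restraint, were followed in single cells of the mouse brain. They were chosen by symbol, and all 9 were found among the 32285 genes counted. CD45+ cells were sorted from the brains of littermates 12 weeks old, 4 control mice (Cre-negative Arpc4 fl/fl) and 4 Arpc4ΔCx3cr1 mice (Tg(Cx3cr1-Cre) Arpc4 fl/fl), so that the floxed alleles were shared by both groups and only the latter carried Cre. Arpc4 encodes a subunit of the Arp2/3 complex, which nucleates branched actin. The transgene drives Cre from the promoter of Cx3cr1, which is active in microglia and other brain macrophages and also in monocytes. In these sequencing data an effect of Cre itself cannot be told apart from the loss of Arpc4. The paper reported comparable microglia numbers and ramification, by microscopy, with and without Cre in mice with functional Arpc4. Mice with Cre and functional Arpc4 are not among those sequenced here. The control mice were male, and the Arpc4ΔCx3cr1 group held 3 males and 1 female. The cells of each mouse carried a tag of their own, and all mice were pooled into 1 library of transcript 3′ ends, so differences between mice are not differences between libraries.

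Interleukin-1β and interleukin-18 are made as inactive precursors. Microglia, like other macrophages, transcribe Il1b after pattern recognition through nuclear factor kappa B. The inflammasome, in which the sensor NLRP3 recruits caspase-1 (Casp1), then cleaves both precursors, while interleukin-1α (Il1a) is active without that step. The receptor antagonist (Il1rn) occupies the interleukin-1 receptor without signalling, SOCS3 (Socs3) restrains JAK-STAT signalling, and the receptor chain IL10RA (Il10ra) binds the anti-inflammatory cytokine interleukin-10. These are measurements of RNA, and the cleaved proteins were not measured.

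Of 19864 deposited barcodes, none shared between mice, 19863 passed the cell filters, and 17039 fell into microglia-like clusters (7800 control, 9239 Arpc4ΔCx3cr1). Sums over the microglia-like cells of a mouse held 4194650 to 11696847 unique molecular identifiers (UMIs, each standing for 1 captured molecule). Levels below are in CPM, a gene's UMIs relative to all UMIs of the sum, scaled by edgeR's TMM factors. All 10 microglia markers were lower in Arpc4ΔCx3cr1 mice, with a summed level of 21336 to 22020 CPM in controls and 9106 to 12817 CPM in Arpc4ΔCx3cr1 mice. Arpc4 itself stood at 224 ± 8.8 CPM (SD, n = 4) in controls and 145 ± 6.3 CPM (n = 4) in Arpc4ΔCx3cr1 mice, a log2 fold change of -0.63. Where the deleted exons lie relative to the counted 3′ ends is not given in the sources used here, and Ttll3 overlaps Arpc4 on the same strand. Arpc4ΔCx3cr1 mouse 1 stood apart: it alone had a high level of the female-specific transcript Xist (1439 CPM, against 3.53 to 13.8 CPM in the other mice), it held 114 of the 232 monocyte-like cells of its genotype, and its level was far from those of the other Arpc4ΔCx3cr1 mice in 3.47% of genes, against 0.636 to 1.76% for the other mice. Its sex cannot be told apart from its other differences. Results that rest on it are given with and without it.

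In microglia-like cells the interleukin-1 ligand Il1b and its antagonist Il1rn both rose strongly, Casp1 rose modestly and the sensor gene Nlrp3 fell. These 4 of the 9 genes passed the test (3 higher and 1 lower), where 46.0% of the 12729 genes tested did (22.8% higher and 23.2% lower), so the number of calls is not particular to these genes. The plot of levels by mouse shows the 9 genes.

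**Figure D1:**
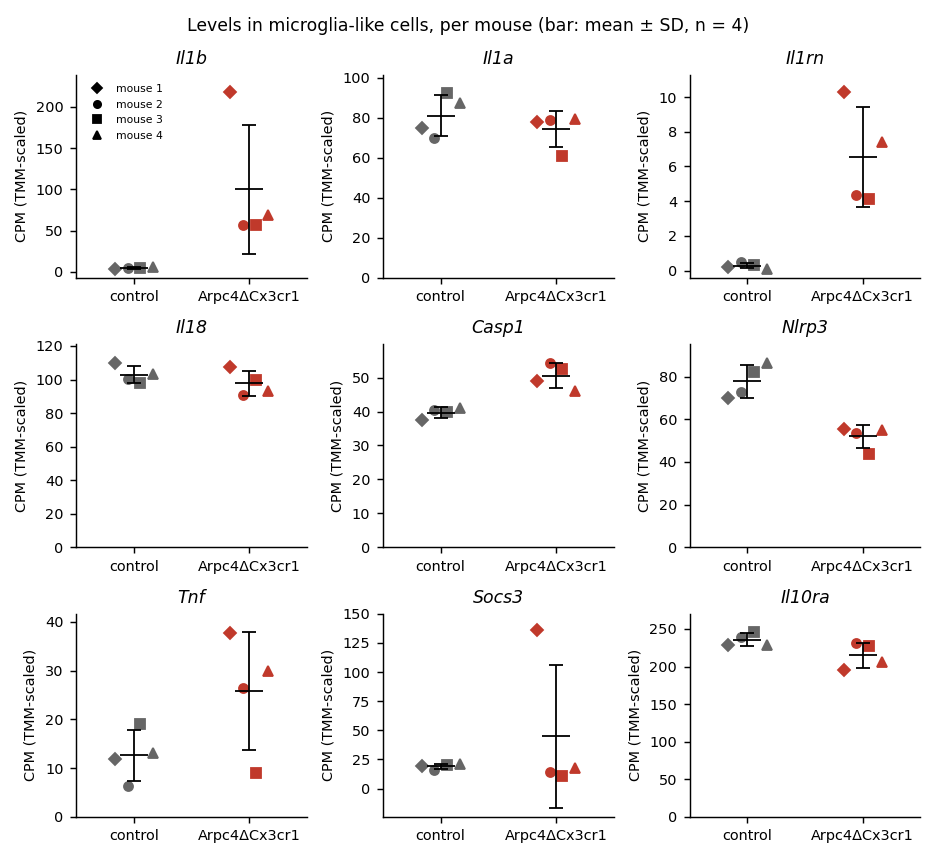
Levels of the 9 genes in microglia-like cells, in CPM scaled by TMM factors (vertical axes, linear), with 1 point per mouse (grey, control; red, Arpc4ΔCx3cr1; symbols give the mouse number) and bars for mean ± SD (n = 4). The groups do not overlap for Il1b, Il1rn, Casp1 and Nlrp3, and Arpc4ΔCx3cr1 mouse 1 lies far above the rest for Il1b (217 CPM) and Socs3 (137 CPM).

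Il1b, Il1a and Tnf are cytokine genes with a TATA box close to their start sites. These stretches are shown because the motif this close to the start sets them apart from the other genes followed here that had a promoter entry. They are the 50 bases before the RefSeq start site (GRCm38.p6, the build of the counts), written in the direction of transcription with the letters TATAAA in capitals.
Il1a, chr2:129309973-129310022, minus strand: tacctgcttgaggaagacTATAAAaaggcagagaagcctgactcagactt
Il1b, chr2:129371140-129371189, minus strand: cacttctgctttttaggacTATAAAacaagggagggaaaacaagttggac
Tnf, chr17:35202008-35202057, minus strand: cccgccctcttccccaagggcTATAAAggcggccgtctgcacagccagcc
The motif begins 32 bases before the start in Il1a, 31 in Il1b and 29 in Tnf. It is found on the same strand in the last 50 bases of 2.63% of 32851 promoters, and on either strand within 250 bases before the start in 12.4%. RefSeq promoter entries were matched for 8 of the 9 genes (11 entries, all but Il10ra), and the other 5 genes do not hold these letters in the window shown. Among those 5, Il18 holds them farther out, within the 250 bases. As the levels below show, the 3 genes with the motif in the window shown did not change alike.

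Il1b encodes interleukin-1β, the ligand that depends on the inflammasome (chromosome 2, 129364570 to 129371139, minus strand, mm10). Its level was 3.49, 4.95, 4.92 and 5.24 CPM in control mice 1 to 4, and 217, 57.1, 56.9 and 69.3 CPM in Arpc4ΔCx3cr1 mice 1 to 4. Every Arpc4ΔCx3cr1 mouse lay above every control, and mouse 1 lay far above the other 3. The log2 fold change was 4.38 (SE 0.52, adjusted p = 5.81e-05, edgeR quasi-likelihood test, Benjamini-Hochberg adjustment), on means of 4.65 ± 0.79 and 100.2 ± 78.3 CPM (SD, n = 4 each). Without Arpc4ΔCx3cr1 mouse 1 it was 3.66, with a smaller adjusted p (8.98e-11, same test). The control sums rest on 163 UMIs in all, against 4216 in the Arpc4ΔCx3cr1 mice.

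Droplets with at most 100 UMIs, taken as empty, held Il1b at 78.9 CPM, and the control level on the same scale, without TMM factors, was 4.83 CPM, or 6.12% of that. If 10% of a mouse's UMIs were free RNA, they would hold 7.89 CPM of Il1b, more than the control level. The call held after subtracting free RNA at 10% or 25% (adjusted p = 0.000354 and 0.00103, edgeR, Benjamini-Hochberg). These settings, 7.89 and 19.7 CPM, took more than the control level and less than the lowest Arpc4ΔCx3cr1 level (54.4 CPM). They could therefore hardly remove the call, and a fold against so small a control remainder is not given. Expression of Il1b in control microglia-like cells cannot be told apart from free RNA by these values.

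Il1rn encodes the secreted receptor antagonist that competes with interleukin-1 (chromosome 2, 24336853 to 24351494, plus strand). The control sums held 1, 5, 3 and 1 UMIs of it, and the Arpc4ΔCx3cr1 sums held 106, 43, 46 and 83. The groups did not overlap, and mouse 1 was again the highest, though within reach of mouse 4. In levels these are 0.29 ± 0.17 CPM and 6.54 ± 2.89 CPM (SD, n = 4 each), with a log2 fold change of 4.41 (SE 0.48, adjusted p = 3.07e-05, edgeR, Benjamini-Hochberg). The ratio of the pooled UMI rates was 20.4, with an exact 95% interval of 10.9 to 43.1 that covers counting error only. Empty droplets held Il1rn at 3.8 CPM, a level that rests on 26 UMIs. On the same scale, without TMM factors, controls had 0.106 to 0.515 CPM and Arpc4ΔCx3cr1 mice 3.95 to 9.87 CPM. With so few UMIs the lowest Arpc4ΔCx3cr1 levels cannot be told apart from that of empty droplets.

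Markers of other cells were looked at beside these rises. The summed level of 8 monocyte markers in the microglia-like sums was 8.57 to 15.2 CPM in controls and 7.55 to 9.20 CPM in Arpc4ΔCx3cr1 mice, with 3 markers tested, none higher and 1 lower. That of 9 granulocyte markers was 381 to 399 CPM and 445 to 640 CPM, with 6 tested, 1 higher and none lower. No marker of either list was at 0 in all mice. Sums of the T cell (1.39 to 2.56 and 2.71 to 4.06 CPM), natural killer cell (0.79 to 1.16 and 2.52 to 4.77 CPM) and proliferating cell markers (3.56 to 5.24 and 6.68 to 11.3 CPM) were low and higher in all Arpc4ΔCx3cr1 mice. The 1 natural killer cell marker tested was called higher (log2 fold change 4.23). Sums of the CAM (165 to 178 and 70 to 159 CPM), B cell (33.8 to 39.6 and 7.65 to 14.9 CPM) and dendritic cell markers (1386 to 1519 and 427 to 795 CPM) were lower in all Arpc4ΔCx3cr1 mice. The dendritic cell list shares Siglech with the microglia markers, so its sum is not a measure of dendritic cells alone. The part of these cells in the result was not tested beyond the values that follow. Without the cells that held a UMI of the granulocyte genes S100a8 or S100a9, the log2 fold changes were 4.36 for Il1b and 4.76 for Il1rn. This left 12319 of 17039 cells (5721 control, 6598 Arpc4ΔCx3cr1). Cells with free RNA of these genes cannot be told apart from granulocytes by this step. A list of genes that dissociation is known to induce had 9 higher, 6 lower and 4 not called of 19 tested, with summed levels of 1615 to 1751 CPM and 1614 to 2274 CPM. Without the cluster that held the highest Ccl3 and Ccl4, chemokine genes of that list, Il1b changed by 4.44. Whether dissociation had a part in the levels was not tested.

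Il1a encodes interleukin-1α, which binds the same receptor as interleukin-1β and lies beside Il1b in the genome (chromosome 2, 129299610 to 129309972, minus strand). Its level was 74.7, 69.95, 92.3 and 87.1 CPM in controls and 78.0, 78.9, 60.7 and 79.3 CPM in Arpc4ΔCx3cr1 mice. The ranges overlapped, and mouse 3 was the lowest of the Arpc4ΔCx3cr1 group. Its log2 fold change was -0.13 (95% interval -0.37 to 0.11, adjusted p = 0.350, edgeR, Benjamini-Hochberg). A difference of the size seen for its neighbour Il1b is outside that interval.

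Il18 encodes the other cytokine that caspase-1 matures (chromosome 9, 50554827 to 50581840, plus strand, overlapped on the other strand by Bco2 and Tex12). It stood at 110.1, 100.5, 97.9 and 103 CPM in controls and 108, 91.0, 99.8 and 92.9 CPM in Arpc4ΔCx3cr1 mice, so the ranges overlapped. This gave a log2 fold change of -0.07 (95% interval -0.22 to 0.07, adjusted p = 0.401, edgeR, Benjamini-Hochberg). With total UMIs in place of TMM factors it was -0.18 and passed the test (adjusted p = 0.0359, same method), a scaling under which the median of all genes moved from -0.01 to -0.11. That scaling also changed the split of all calls from 2906 higher and 2951 lower to 2243 higher and 4263 lower.

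Casp1 encodes the protease of the inflammasome (chromosome 9, 5298517 to 5307265, plus strand). It measured 37.5, 40.4, 40.0 and 40.9 CPM in controls and 48.9, 54.5, 52.6 and 46.2 CPM in Arpc4ΔCx3cr1 mice. The groups were apart, with little spread in either. Its log2 fold change was 0.34 (SE 0.07, adjusted p = 0.00154, edgeR, Benjamini-Hochberg), on means of 39.7 ± 1.5 and 50.5 ± 3.7 CPM (SD, n = 4 each).

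Nlrp3 encodes the sensor that assembles the inflammasome (chromosome 11, 59541568 to 59566956, plus strand). It measured 70.1, 72.9, 81.9 and 86.6 CPM in controls and 55.4, 53.7, 43.8 and 55.0 CPM in Arpc4ΔCx3cr1 mice. Here every Arpc4ΔCx3cr1 mouse was below every control. The log2 fold change was -0.59 (SE 0.09, adjusted p = 0.000351, edgeR, Benjamini-Hochberg), on means of 77.9 ± 7.7 and 52.0 ± 5.5 CPM (SD, n = 4 each). The protease and the sensor of the same complex thus moved in opposite directions, with each mouse left out in turn as well (0.31 to 0.38 for Casp1, -0.63 to -0.51 for Nlrp3). Of all genes tested, 44.3% had groups of mice that did not overlap, as Il1b, Il1rn, Casp1 and Nlrp3 did.

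**Figure D2:**
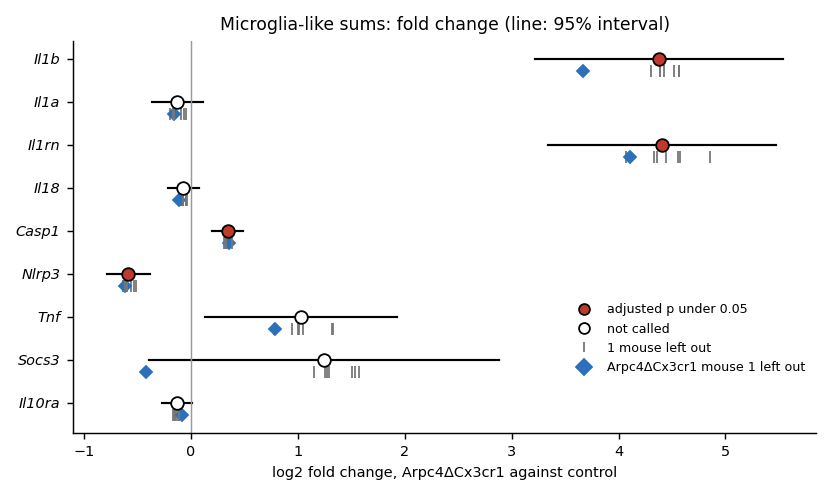
Log2 fold change of each gene in microglia-like sums, Arpc4ΔCx3cr1 against control (circles, filled where the adjusted p is under 0.05; lines, 95% intervals), with the values for each mouse left out below it (ticks; blue diamonds, without Arpc4ΔCx3cr1 mouse 1). Without that mouse Il1b moved from 4.38 to 3.66 and Socs3 from 1.24 to -0.42.

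Tnf encodes tumour necrosis factor, a cytokine that acts through receptors of its own and needs no inflammasome (chromosome 17, 35199381 to 35202007, minus strand). Its level was 11.9, 6.33, 19.1 and 13.1 CPM in controls and 37.7, 26.5, 8.99 and 30.0 CPM in Arpc4ΔCx3cr1 mice. Mice 1, 2 and 4 lay above all controls, whereas mouse 3 lay below 3 of them. Over all mice the log2 fold change was 1.03 (SE 0.41, adjusted p = 0.0600, edgeR, Benjamini-Hochberg). It passed the threshold without Arpc4ΔCx3cr1 mouse 3 (1.31, adjusted p = 0.00306), without control mouse 3 (1.33, adjusted p = 0.0407) and with no filter on low counts (1.03, adjusted p = 0.0236), all by the same method.

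Socs3 encodes a protein that the JAK-STAT pathway induces and that blocks its receptors in return (chromosome 11, 117966079 to 117970047, minus strand). It stood at 19.6, 15.5, 19.9 and 20.7 CPM in controls and 137, 14.2, 10.6 and 17.4 CPM in Arpc4ΔCx3cr1 mice. Mouse 1 alone was above the controls, and mice 2 and 3 were below all of them. With all mice the log2 fold change was 1.24 (SE 0.74, adjusted p = 0.195), and without Arpc4ΔCx3cr1 mouse 1 it was -0.42 (adjusted p = 0.0397, both edgeR, Benjamini-Hochberg). The direction of this gene thus rests on 1 mouse. In that mouse 918 of 2182 microglia-like cells held a UMI of Socs3, against 110 to 169 cells in the other Arpc4ΔCx3cr1 mice.

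Il10ra encodes the chain of the interleukin-10 receptor that binds the cytokine (chromosome 9, 45253837 to 45269149, minus strand). It measured 229, 239, 246 and 228 CPM in controls and 196, 231, 227 and 206 CPM in Arpc4ΔCx3cr1 mice. The ranges overlapped, since Arpc4ΔCx3cr1 mouse 2 lay above control mice 1 and 4. The log2 fold change was -0.13 (95% interval -0.27 to 0.01, adjusted p = 0.117, edgeR, Benjamini-Hochberg), and -0.24 with total UMIs (adjusted p = 0.0120, same method), under the scaling shift given for Il18.

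The share of cells that hold a UMI says how widely a transcript is found. To take depth out of it, each microglia-like cell was thinned to 2000 UMIs, which left out 29 to 129 cells per mouse. The thinned share of Il1b was 0.620 to 0.905% in controls and 21.2, 7.48, 7.55 and 7.76% in Arpc4ΔCx3cr1 mice (unthinned means 1.69% and 18.6%). It was far higher in all Arpc4ΔCx3cr1 mice, and mouse 1 again led. In B cell-like cells, a class not known for Il1b, 1 of 79 cells (1.27%, exact 95% binomial interval 0.0320 to 6.85%) held a UMI after thinning to 1000, where control microglia had 0.20 to 0.5% and Arpc4ΔCx3cr1 microglia 4.03 to 13.6%. The median depths before thinning were 3065 UMIs in B cell-like and 4055 in microglia-like cells. That interval covers the control shares and also those of Arpc4ΔCx3cr1 mice 2 to 4 (4.97, 4.03 and 5.13%). These B cell-like cells are thus too few to set a background for Il1b.

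Shares of 7 of the 9 genes did not overlap between the groups at 2000 UMIs, each with p = 0.0286 in a two-sided exact permutation test over mice, the smallest that 4 against 4 allows. Of 15959 genes, 34.3% had groups that did not overlap in the same way. Il1b, Il1rn and Casp1 were found in more cells, and Il1a, Il18, Nlrp3 and Il10ra in fewer. For Il1rn the shares were 0 to 0.136% and 0.590 to 1.75%, and none of 79 B cell-like cells held it, too few cells to set a background below these shares (3 counts would be 3.8%). Nlrp3 fell from 13.3 to 15.7% of cells to 8.11 to 9.52%, and Il10ra from 38.3 to 40.0% to 32.4 to 36.1%. Il1a was found in 13.4 to 17.7% of control cells and 10.0 to 12.5% of Arpc4ΔCx3cr1 cells, although its level did not pass the test. Without thinning, the shares of Il1a (25 to 30.1% and 20.5 to 25.7%) and Il10ra (60.1 to 62.6% and 55.2 to 60.8%) overlapped, and 4 of the 9 genes were apart, where 32.1% of genes were. After thinning to 1000 UMIs 6 were apart, where 30.4% of genes were. Il18 was apart by little (17.6 to 18.9% against 16 to 17.5%) and overlapped after thinning to 1000 UMIs or without thinning. Tnf shares were 0.95 to 3.35% and 1.85 to 5.14% (exact permutation p = 0.0571), and Socs3 shares had an exact permutation p of 1.00.

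Il1b RNA was also uneven among the cells that held it. Of 2182 microglia-like cells of Arpc4ΔCx3cr1 mouse 1, 741 held a UMI and 120 held at least 5, with 42 in the highest cell. In Arpc4ΔCx3cr1 mice 2 to 4, 283 to 343 cells held a UMI, and 20 to 27 held at least 5. In controls 15 to 44 cells held a UMI and the highest cell held 9. Among the cells of an Arpc4ΔCx3cr1 mouse with a UMI, the top 10% took 40.1 to 43.0% of the Il1b UMIs. For Il1rn there were 1.09 to 1.26 UMIs per cell that held it in the Arpc4ΔCx3cr1 mice and at most 4 in 1 cell. With 43 to 106 UMIs per mouse, values near 1 follow from the low level. The spread of Il1rn among cells therefore cannot be compared with that of Il1b.

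Microglia-like cells formed 12 clusters, from whose formation the 9 genes were left out, and 11 of which were about 85.0% or more of 1 genotype with mice weighted equally. Cluster levels are therefore described, with CPM of the cluster total and no test. Il1b was highest in the Arpc4ΔCx3cr1 cells of cluster 9, led by Ccl4 and Ccl3, with 418, 171, 178 and 159 CPM in mice 1 to 4. It followed in cluster 6, led by hemoglobin genes and Ms4a7, with 377, 102, 147 and 105 CPM. No microglia marker was among the 10 leading genes of cluster 6 or of any other microglia cluster. Leading genes were ranked against the other microglia clusters, so markers that these share are not expected among them. When all cells were clustered at resolution 0.4, hemoglobin genes and Ms4a7 led, with the CAM genes Pf4, F13a1 and Mrc1, a CAM-like cluster of 1733 cells, against 411 CAM-like cells at the resolution used. The microglia-like sums then held 15719 cells, and Il1b changed by 4.38 in them, Il1rn by 4.41, Casp1 by 0.33 and Nlrp3 by -0.59. Cluster 1, the Arpc4ΔCx3cr1 cluster with the most cells (2894), held 53.3, 29.8, 32.6 and 35.6 CPM. In every one of these 3 clusters mouse 1 was the highest, and cluster 5, which is nearly all from that mouse (1419 cells), held Il1b at 197 CPM.

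Few control cells fell into these clusters. In cluster 1 the 92 control cells had 22.2, 8.74, 19.9 and 17.3 CPM, below the Arpc4ΔCx3cr1 cells of that cluster but above the 1.85 to 3.53 CPM of control cells in cluster 0, the control cluster with the most cells. These cluster 1 values rest on 16 UMIs. In cluster 9 the 107 control cells had 0, 0, 39.9 and 91.2 CPM, again below all Arpc4ΔCx3cr1 mice, and resting on 22 UMIs. In cluster 11, led by Arhgap15 and Mrc1, the levels overlapped (8.99 to 15.9 CPM in 3 controls and 0 to 12.7 CPM in 3 Arpc4ΔCx3cr1 mice).

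**Figure D3:**
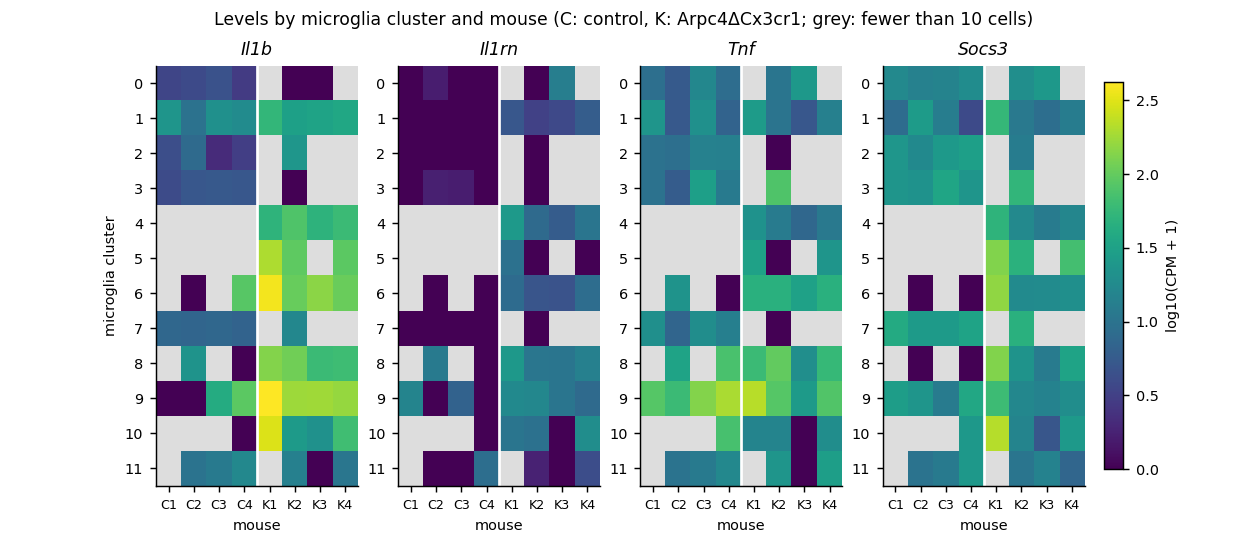
Levels of Il1b, Il1rn, Tnf and Socs3 by microglia cluster (rows) and mouse (columns), as log10 of CPM plus 1 (colour), grey where a mouse had fewer than 10 cells. Il1b is high in clusters 4, 5, 6, 8 and 9 in Arpc4ΔCx3cr1 mice and in cluster 10 in mouse 1 (306 CPM, against 20.3 to 65.6 CPM in the other 3), Tnf has its highest mean in cluster 9, and Socs3 is high in every cluster of Arpc4ΔCx3cr1 mouse 1 shown (50.1 to 211 CPM).

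In cluster 9 Tnf measured 60.2 to 195 CPM in controls and 25.9 to 218 CPM in Arpc4ΔCx3cr1 mice, which overlap, while in cluster 1 it measured 4.37 to 22.2 CPM and 4.13 to 26.7 CPM. Over both genotypes cluster 9 had the highest mean (110.4 CPM), followed by cluster 8, led by interferon-induced genes such as Cxcl10 (56.4 CPM). Without cluster 9 the fold change of Tnf over all microglia-like cells was 1.03, as it was with it. Il1a and Il18 were lower in the Arpc4ΔCx3cr1 cells of cluster 1, without overlap (57.1 ± 6.6 against 77.4 ± 3.1 CPM for Il1a and 92.7 ± 7.2 against 116 ± 7.7 CPM for Il18, SD, n = 4 each). The control values rest on 74 and 111 UMIs. The share of all genes apart within a cluster was not determined, so genes apart there, Il1b and Il1rn included, have no such share beside them. Nlrp3 and Casp1, which differed over all microglia-like cells, overlapped between the genotypes in clusters 1, 9 and 11, the clusters with at least 3 mice of each. The mean of Casp1 was higher in Arpc4ΔCx3cr1 cells in cluster 1 (44.2 against 38.6 CPM) and lower in clusters 9 (34.9 against 37.7) and 11 (43.3 against 61.7). Il1rn was apart in cluster 1 (0 CPM in all controls, 2.23 to 4.89 CPM in Arpc4ΔCx3cr1 mice) and overlapped in clusters 9 (means of 4.94 and 12.2 CPM) and 11 (2.64 and 1.33 CPM).

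The 18 means over cell classes and microglia clusters were also searched for genes whose pattern is most like a gene's own, among 9910 genes, by Pearson correlation of log2 levels. Il1b was most like Rab7b (r = 0.88), Anxa5 (0.88) and Myof (0.84). Tnf was most like Ccl3 (0.77), Atf3 (0.76) and Nes (0.76), and Il18 most like Tlr7 (0.96), Tor1aip1 (0.95) and Etv3 (0.94). All 18 means come from the same library and share mice. They pool both genotypes, and most microglia clusters hold mainly 1 genotype. A likeness by genotype therefore cannot be told apart from a likeness by cell state. The genes named are the highest of all 9910, and the r that such a search gives by chance was not determined.

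Levels by cell class are described within each genotype, as CPM of the class total, over the 4 classes found in all 8 mice: microglia-like, CAM-like (CNS-associated macrophages), monocyte-like and T cell-like cells. Granulocyte-like, B cell-like and myeloid progenitor-like cells, with 1 to 3 mice per genotype, and the unnamed clusters were left out of the order. In controls Il1b was highest in monocyte-like cells (71.2 ± 47.7 CPM, SD, n = 4), then CAM-like (39.8 ± 33.0), microglia-like (4.83 ± 0.86) and T cell-like cells (3.59 ± 4.18). Among these neighbours the CAM-like and microglia-like cells did not overlap. In Arpc4ΔCx3cr1 mice the order was the same (267 ± 128, 104 ± 130, 96.4 ± 75.2 and 30.0 ± 47.7 CPM), and all neighbours overlapped.

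Casp1 and Il1rn were also highest in monocyte-like cells in both genotypes among these 4 classes, overlapping the class next in order. For Il1rn this rests on 2 control and 22 Arpc4ΔCx3cr1 UMIs, 20 of the latter in mouse 1. Its means were higher in 2 classes left out of the order. These were granulocyte-like (36.4 and 16.8 CPM, 1 mouse each) and myeloid progenitor-like cells (4.81 and 8.16 CPM). Granulocyte-like cells held 51.9% of the Il1rn UMIs in controls and 3.74% in Arpc4ΔCx3cr1 mice. Il1a was highest in microglia-like cells in both genotypes, with no overlap with the T cell-like cells next in order. Nlrp3 and Il10ra were highest in microglia-like cells in both genotypes too, apart from CAM-like cells in controls (80.8 ± 8.6 against 40.3 ± 7.5 CPM for Nlrp3, and 244 ± 9.1 against 137 ± 24.8 CPM for Il10ra) but overlapping the next class in Arpc4ΔCx3cr1 mice. For the other 3 genes the first class differed between the genotypes. Il18 was highest in microglia-like cells in controls (107 ± 5.0 CPM, against 70.1 ± 21.3 in CAM-like cells, with no overlap) and in CAM-like cells in Arpc4ΔCx3cr1 mice (108 ± 34.1 CPM, overlapping 94.3 ± 6.7 in microglia-like cells). Socs3 was highest in microglia-like cells in controls (19.6 ± 2.4 CPM, apart from the T cell-like cells next in order) and in monocyte-like cells in Arpc4ΔCx3cr1 mice (82.0 ± 64.0 CPM, overlapping the CAM-like cells). Tnf was highest in CAM-like cells in controls and in microglia-like cells in Arpc4ΔCx3cr1 mice, overlapping the next class in both. In the unnamed clusters, whose cells had few UMIs, the mean of Il10ra was above that of microglia-like cells in both genotypes (294 ± 35.9 and 250.1 ± 24.4 CPM). Il1rn was not found in a CAM-like cell of any mouse. In controls the microglia-like cells, 82.6% of cells, held 56.8% of the Il1b UMIs, and monocyte-like cells, 1.22% of cells, held 19.9%. In Arpc4ΔCx3cr1 mice the same classes, 88.7% and 2.23% of cells, held 88.4% and 8.16%.

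**Figure D4:**
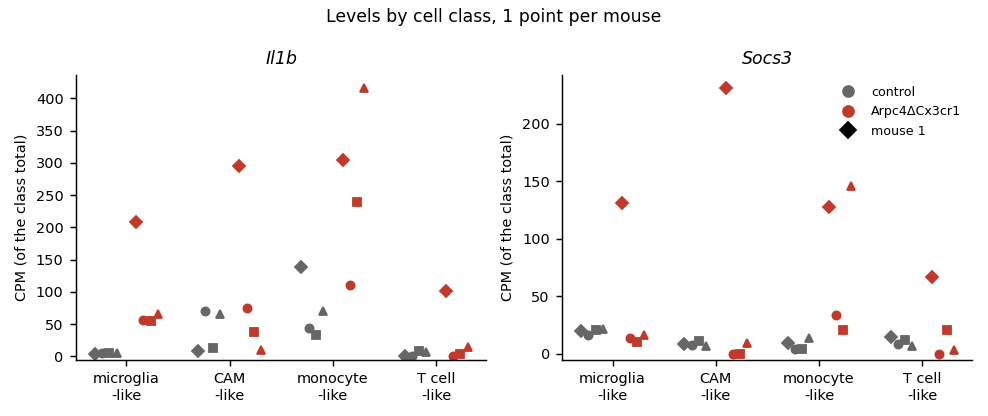
Levels of Il1b and Socs3 by cell class, in CPM of the class total (linear axes), with 1 point per mouse (grey, control; red, Arpc4ΔCx3cr1; diamonds, mouse 1). In both genotypes the mean of Il1b is highest in monocyte-like cells, and Socs3 in CAM-like cells is high in Arpc4ΔCx3cr1 mouse 1 only (231 CPM).

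In monocyte-like cells (115 control and 232 Arpc4ΔCx3cr1) Il1b was higher as well. It stood at 148, 46.8, 34.7 and 75.1 CPM in controls and 287, 98.1, 224 and 400.02 CPM in Arpc4ΔCx3cr1 mice, with control mouse 1 above Arpc4ΔCx3cr1 mouse 2. The log2 fold change was 1.76 (SE 0.43, adjusted p = 0.0267, edgeR, Benjamini-Hochberg), and it was the sole call among 4 members tested, where 6.90% of 3147 genes passed (2.57% higher and 4.32% lower). The adjusted p ranged from 0.0586 to 0.106 without control mouse 2, 3 or 4 or without Arpc4ΔCx3cr1 mouse 1 or 3, and the call was lost. The other members tested, Il18 (-0.41), Casp1 (-0.08) and Il10ra (0.48), did not pass (adjusted p = 0.561, 0.928 and 0.375, same method). Socs3 was too low to be tested there, with 6 control UMIs, and its 4.34 to 15.0 CPM in controls did not overlap the 19.3 to 141 CPM in Arpc4ΔCx3cr1 mice, as for 12.8% of the genes tested. With total UMIs the median of all genes in these sums moved from 0.02 to 0.22, and the calls from 81 higher and 136 lower to 166 higher and 73 lower, while Il1b changed by 1.94. Arpc4 itself stood at 268 ± 43.7 and 256 ± 38.4 CPM (SD, n = 4 each) in monocyte-like sums. Its log2 fold change there was -0.04 (adjusted p = 0.971, edgeR, Benjamini-Hochberg), so a lower Arpc4 level was not found in these cells.

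In CAM-like cells (284 control and 127 Arpc4ΔCx3cr1), brain macrophages at the borders of the tissue, none of the 4 members tested passed by edgeR, Benjamini-Hochberg, where 0.921% of 3367 genes did (0.475% higher and 0.446% lower). These sums did not include the cells of microglia cluster 6. Il1b was 8.92, 69.5, 14.1 and 63.9 CPM in controls and 323, 69.96, 39.5 and 8.83 CPM in Arpc4ΔCx3cr1 mice. Apart from mouse 1 the groups overlapped, where 6.24% of genes had groups that did not. Il1b differed by 1.65 on the log2 scale (adjusted p = 0.293), the sole one of the 4 with an unadjusted p under 0.05, and it was 0.02 without mouse 1 (adjusted p = 0.998). Il18, Casp1 and Il10ra changed by 0.60, 0.15 and 0.30 (adjusted p = 0.476, 0.920 and 0.684). Socs3 held 36 of its 37 Arpc4ΔCx3cr1 UMIs in mouse 1. Arpc4 stood at 191 ± 27.5 and 230 ± 34.9 CPM (SD, n = 4 each) in CAM-like sums. Its log2 fold change there was 0.27 (adjusted p = 0.685, edgeR, Benjamini-Hochberg), so a lower Arpc4 level was not found in these cells either.

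Whether the genotype difference was larger in microglia-like than in CAM-like cells was tested with an interaction term over 11173 genes, of which 5.14% passed (4.41% with a positive and 0.725% with a negative difference). No member did by edgeR, Benjamini-Hochberg, and Il1b alone had an unadjusted p under 0.05, with a difference of 2.80 on the log2 scale (95% interval 0.42 to 5.18, adjusted p = 0.196). Both sums come from the same mouse, and with the mouse as a block the difference was 3.06 (adjusted p = 3.04e-10, same method). Without Arpc4ΔCx3cr1 mouse 1 and with no block it was 3.75 (adjusted p = 0.000183). In T cell-like cells (134 control and 175 Arpc4ΔCx3cr1) Casp1 and Il10ra were tested and changed by 0.59 and -0.01 (adjusted p = 0.447 and 0.996), neither with an unadjusted p under 0.05, where 4.04% of 4183 genes passed (1.70% higher and 2.34% lower) and 8.53% had groups that did not overlap. In those cells Il1b held 24 of its 29 Arpc4ΔCx3cr1 UMIs in mouse 1.

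Genes around these cytokines, none of them among the 9, were then counted in microglia-like sums, beside the 22.8% of all genes higher and 23.2% lower and the median log2 fold change of -0.01. Of 12 tested genes of interleukin-1 family ligands, receptors and signalling, 6 rose, 1 fell and 5 did not pass (median 0.51). Il18rap, a chain of the interleukin-18 receptor, rose by 2.51 (adjusted p = 0.0128), with 38.6 CPM in Arpc4ΔCx3cr1 mouse 1 and 4.95 to 7.82 CPM in the other 3. Il1r1, the receptor that interleukin-1β signals through, rose from 2.70 ± 0.84 to 10.1 ± 0.70 CPM (SD, n = 4 each, log2 fold change 1.82, adjusted p = 1.41e-05). The receptor kinase Irak1 fell by 0.29 on the log2 scale (adjusted p = 0.0117). All p-values of these lists are from the edgeR test with Benjamini-Hochberg adjustment over all genes.

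Of 16 genes of inflammasomes and pyroptosis, 5 rose, 6 fell and 5 did not pass (median 0.05). Casp4, the protease of the non-canonical inflammasome, rose from 33.6 ± 3.5 to 68.7 ± 5.9 CPM (1.04, adjusted p = 5.40e-06). Nlrc4, a sensor beside Nlrp3, rose by 1.57 (adjusted p = 0.0125), but summed over all sorted cells its change did not pass (0.20, adjusted p = 0.646). Txnip, a binder of NLRP3, fell from 350.1 ± 14.1 to 158 ± 23.7 CPM (-1.15, adjusted p = 3.45e-06), and Ninj1, which ruptures the membrane of dying cells, fell from 65.3 ± 9.5 to 40.3 ± 4.9 CPM (-0.70, adjusted p = 0.000538).

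Of 12 genes of tumour necrosis factor signalling, 4 rose, 4 fell and 4 did not pass (median 0.15). The adaptor Traf2 and the ubiquitin ligase Birc3 rose by 0.59 and 0.54 (adjusted p = 0.00153 and 0.000263), and the kinase of necroptosis Ripk3 fell by 1.07 (adjusted p = 0.00145). Ltb, a related cytokine, fell by 0.76 (adjusted p = 0.00938), a call lost over all sorted cells (-0.18, adjusted p = 0.446). Of 13 genes of nuclear factor kappa B, 7 rose, 1 fell and 5 did not pass (median 0.37). The nuclear regulators Bcl3 and Nfkbiz rose by 1.76 and 1.44 (adjusted p = 0.00339 and 0.000182), with Bcl3 at 25.4 CPM in mouse 1 and 8.27 to 9.35 CPM in the other Arpc4ΔCx3cr1 mice, and the subunit Rela fell by 0.29 (adjusted p = 0.00280).

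Of 14 genes of interleukin-10, JAK-STAT and SOCS, 7 rose, 3 fell and 4 did not pass (median 0.29). Socs2, a relative of Socs3, rose from 1.02 ± 0.42 to 4.28 ± 0.56 CPM (2.07, adjusted p = 0.000145). Il6st and Il6ra, which form the receptor of interleukin-6, fell from 243 ± 16.9 to 113 ± 16.7 CPM (-1.10, adjusted p = 7.57e-06) and from 272 ± 17.3 to 193 ± 31.6 CPM (-0.49, adjusted p = 0.00280). Of 9 other cytokines, 4 rose, 3 fell and 2 did not pass (median -0.16). Csf1 rose from 16.3 ± 2.5 to 142 ± 37.7 CPM (3.13, adjusted p = 7.07e-07) and Il12b from 0.53 ± 0.68 to 5.93 ± 3.01 CPM (3.30, adjusted p = 0.00135), a change that starts from 20 control UMIs. Il6, a classical partner of Il1b and Tnf in inflammation, went the other way, from 16.9 ± 1.5 to 1.99 ± 1.56 CPM (-3.09, adjusted p = 5.18e-05). Il16 fell from 62.7 ± 2.9 to 30.0 ± 5.1 CPM (-1.06, adjusted p = 1.70e-05).

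**Figure D5:**
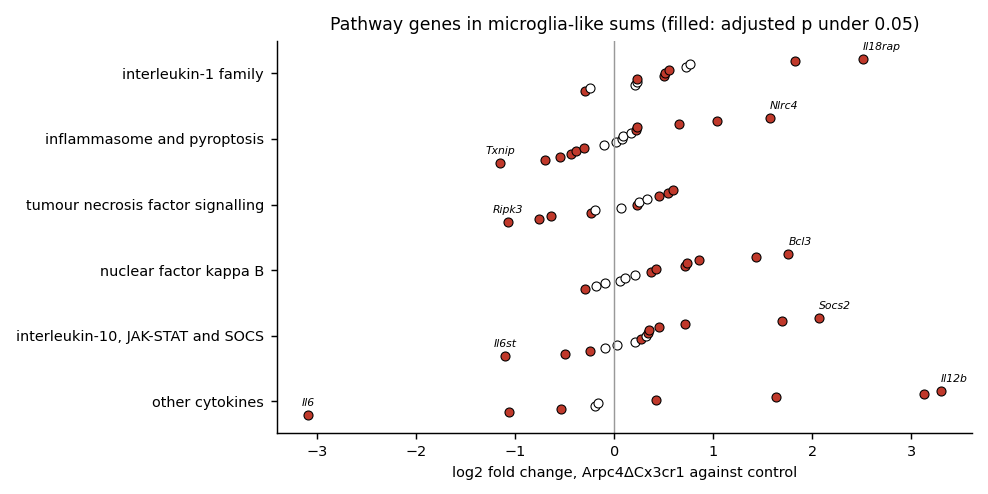
Log2 fold change in microglia-like sums, Arpc4ΔCx3cr1 against control (horizontal axis), of the tested genes of 6 lists around the cytokines and the inflammasome, 1 point per gene, filled where the adjusted p is under 0.05, with the outermost genes of a list labelled where they lie more than 1 from 0. Each list holds genes on both sides of 0, from Il6 at -3.09 to Il12b at 3.30.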

How the data were processed

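The study's gene expression library held CD45+ brain cells of 8 mice, assigned to mice by their tags, with groups taken from the labels. The authors aligned reads to mm10 with Cell Ranger (the versions named in file headers and processing notes differ) and deposited raw UMI counts per gene and cell, with no ambient correction; barcodes tagged for more than 1 mouse were left out by their tag assignment, and no caller was run for doublets within a mouse. Whether intronic reads were counted is not given in the sources used here. All 8 mice were used, including Arpc4ΔCx3cr1 mouse 1. The paper left its female Arpc4ΔCx3cr1 mouse out of its own single-cell results because of a possible bias by sex. Its set of mice therefore differs from the one used here.

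Barcodes under 200 genes or over 20% mitochondrial UMIs were removed, and the rest clustered with Seurat 5.3.0 (R 4.3.3), leaving out the 9 genes, and named from marker lists. UMIs were summed per mouse and class (at least 10 cells) and tested with edgeR 4.0.16 (filterByExpr, TMM, quasi-likelihood, Benjamini-Hochberg over all genes, adjusted p under 0.05). The test was also run on simulated counts with the same dispersion for all genes. That setting does not cover genes in which a mouse stands far apart, such as Il1b and Socs3. Shares were compared with two-sided exact permutation tests. DESeq2 1.42.0 and other alternatives follow at the end. Positions are from GENCODE vM21, promoters from RefSeq (GRCm38.p6). All 9 genes were named; of each pathway list, the 2 largest rises and falls past the threshold were named, except 1 gene that is not reported here. The 9 genes and the lists were chosen with earlier results of these data known.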

Additional observations from a re-analysis of the deposited data

Results flagged for a closer look

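In 38 groups of 4 mice, the highest or lowest value of a tested member was compared with the rest by Dixon's criterion, and 6 values lay apart. Chance gives about 1 in 20 groups. In microglia-like sums, Il1b was 217 CPM and Socs3 137 CPM in Arpc4ΔCx3cr1 mouse 1, each far above the other 3 mice of that genotype. Il1a was 60.7 CPM and Nlrp3 43.8 CPM in Arpc4ΔCx3cr1 mouse 3, each below the other 3. In T cell-like sums, Casp1 was 24.8 CPM in control mouse 2 and 38.1 CPM in Arpc4ΔCx3cr1 mouse 1, each below the rest of its group and resting on 6 and 9 UMIs.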

How the results depend on the processing

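In microglia-like sums the directions and calls of Il1b, Il1rn, Casp1 and Nlrp3 held under every alternative run: another scaling, no filter, DESeq2, subtraction of free RNA, other clusterings, all sorted cells, and each mouse left out. At 10% the subtraction already took more than the mean control level of Il1b and Il1rn, so it could hardly remove their calls. Socs3 turned to -0.42 without Arpc4ΔCx3cr1 mouse 1 (-0.42 to 1.57 over the mice left out), and DESeq2 gave it no adjusted p. The mouse numbers pair nothing between genotypes (correlations of deviations -0.08 to -0.01), and with the number as a replicate block Il1b changed by 4.04 and no call of a member changed. In CAM-like sums the replicate block gave 13 called genes instead of 31. Called genes ranged over the mice left out from 11 to 56 (CAM-like), 90 to 239 (monocyte-like), 105 to 176 (T cell-like) and 350 to 574 (interaction), members called from 0 to 1 (monocyte-like) and 0 to 1 (interaction), and 1 member was called in the interaction with the mouse as a replicate block. Without thinning, 4 shares did not overlap instead of 7, and after thinning to 1000 UMIs 6 did not; with 3 mice against 4 the shares cannot pass (smallest p 0.0571). The lowest counts were without control mouse 3 (CAM-like), control mouse 2 (monocyte- and T cell-like) and control mouse 4 (interaction), and the highest in CAM-like sums without Arpc4ΔCx3cr1 mouse 2.

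Differences that changed sign as mice were left out were Casp1 in CAM-like sums (-0.24 to 0.40; -0.00 without control mouse 4) and in monocyte-like sums (-0.18 to 0.029; 0.02 without Arpc4ΔCx3cr1 mouse 1, and 0.11 with total UMIs), Il10ra in T cell-like sums (-0.22 to 0.11), the interactions of Il1a (-0.55 to 0.54), Casp1 (-0.0042 to 0.63) and Socs3 (-1.87 to 1.36), and the Socs3 share (-1.68 to 5.28 points, the lowest without Arpc4ΔCx3cr1 mouse 1). The Il18 share differed by 0.0666 points without thinning. The causes were not tested. CAM-, monocyte- and T cell-like sums held 88958 to 808444 UMIs each, which left most members untested there.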
